A study of Rattus norvegicus with 30 samples.

Results

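The 10 genes described here encode the carnitine shuttle and the core enzymes of mitochondrial fatty acid β-oxidation: Cpt1a, Cpt2, Slc25a20, Crat, Acadm, Acadl, Acadvl, Hadha, Hadhb and Decr1. They were taken by symbol from the annotation of the Affymetrix rat array, which named 14217 genes, and each was read from the probe set with the highest mean log2 signal. All 10 were among the 8531 brightest genes that were tested. The samples were 30 wells of thawed, plated primary hepatocytes from male Sprague Dawley rats, with 1 array per well and 5 wells in each of 6 groups. On day 3 of culture the wells received vehicle (1% DMSO), 500 µM acetaminophen or 5000 µM acetaminophen, and RNA was taken 24 or 48 h later. Acetaminophen is an analgesic that hepatocytes conjugate and, in part, oxidise to a reactive quinone imine. All wells held purchased frozen cells in culture, with no label for separate animals, so p-values here refer to the spread between culture wells.

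Long-chain fatty acids enter mitochondria as carnitine esters. Cpt1a makes the ester at the outer membrane, the carrier Slc25a20 takes it across the inner membrane, and Cpt2 turns it back into acyl-CoA in the matrix. Each turn of β-oxidation then starts with an acyl-CoA dehydrogenase chosen by chain length and goes on, for long chains, in the trifunctional protein, while Decr1 removes double bonds of polyunsaturated chains. In liver the pathway supplies energy and ketone bodies during fasting, and many of its genes are known targets of the fatty acid receptor PPAR-alpha.

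With the values as deposited, most of these genes rose in acetaminophen-treated wells at each dose and time, and all 10 rose at 5000 µM and 48 h. With arrays centred on their medians fewer rose at 24 h, 2 at 500 µM (0.504% of all tested genes) and 4 at 5000 µM (9.48%). Each group was compared with vehicle of the same time in limma, with an adjusted p under 0.05 over all tested genes as the threshold for a call. Of the 10 genes, 6 rose at 500 µM and 24 h (background: 1.65% of all tested genes rose), 6 at 5000 µM and 24 h (18.6%), 7 at 500 µM and 48 h (24.0%) and 10 at 5000 µM and 48 h (14.6%). Of these 40 gene comparisons 29 passed as rises and 0 passed as falls in limma, and 0 were lower at an unadjusted p under 0.05. The median log2 change of the 10 genes was 0.27, 0.24, 0.36 and 0.48 in that order of comparisons, against medians of -0.02, -0.00, 0.01 and -0.01 over all tested genes. Crat, Acadvl and Hadhb rose in all 4 comparisons, which 0.399% of all tested genes did, although with arrays centred on their medians Acadvl and Hadhb were not called at 24 h at either dose. Of the 10 genes, 9 had log2 changes above 0 in all 4, against 7.71% of all tested genes. All 5 treated arrays lay above all 5 vehicle arrays for 6, 5, 6 and 10 of the genes in the same order (2.32%, 11.8%, 16.1% and 11.8% of all tested genes). In a culture of mixed cells a change in the number of cells of a type and a change in RNA per cell cannot be told apart.

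**Figure D1:**
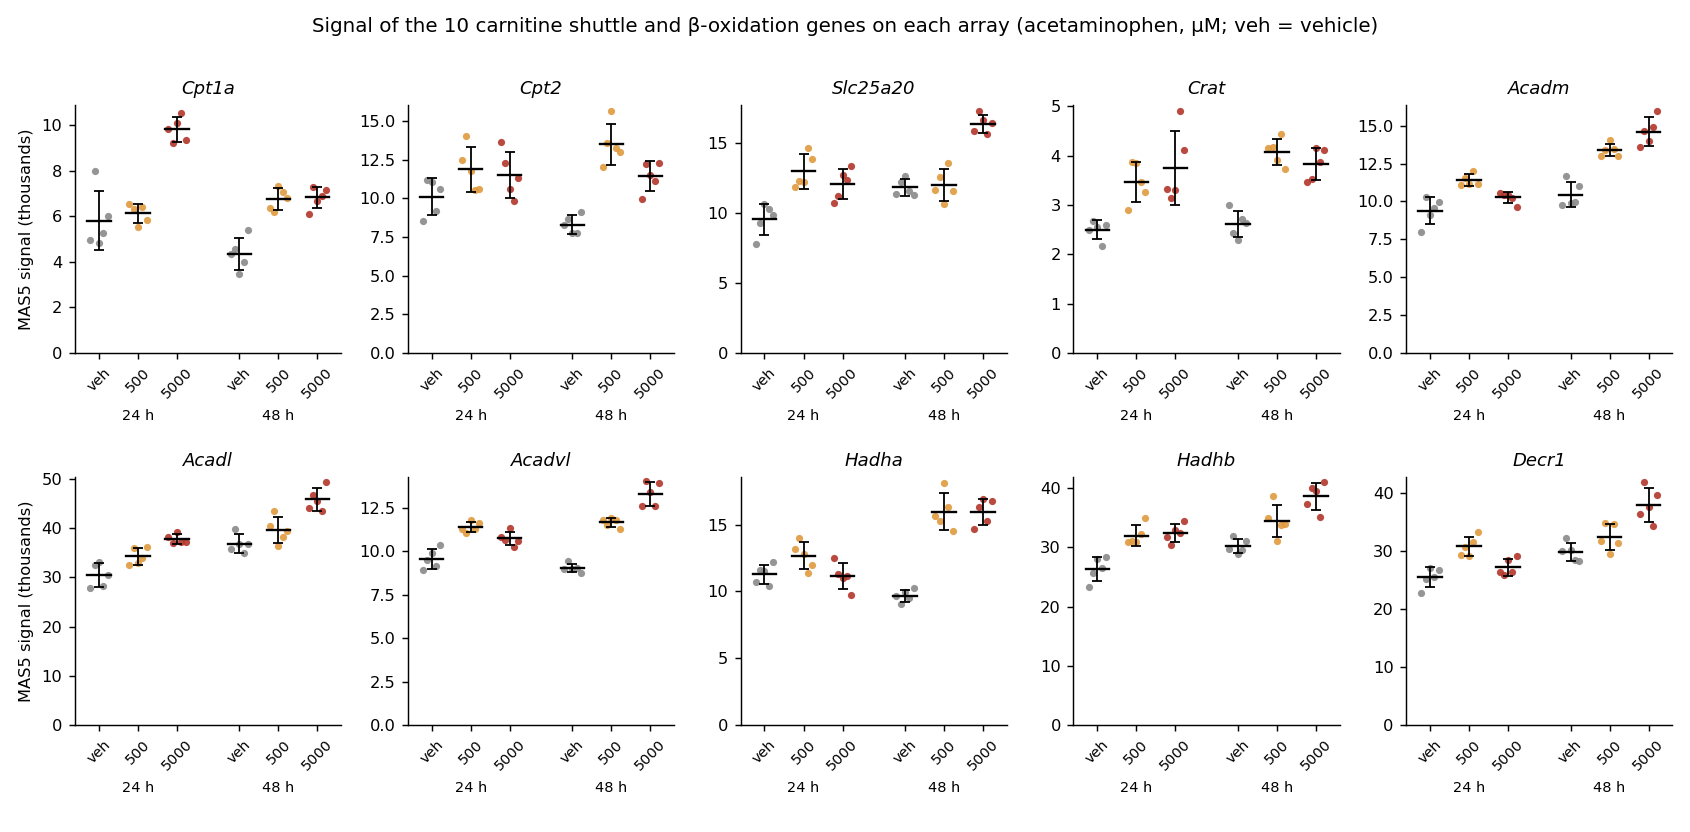
MAS5 signal (vertical axis in multiples of 10 to the power 3, from 0) of the 10 genes on each of the 30 arrays, by acetaminophen dose in µM (veh, vehicle) at 24 and 48 h; points are arrays, bars are the mean and SD of 5 arrays. At 48 h all 5 arrays of the 5000 µM group lie above all 5 vehicle arrays for each of the 10 genes, and at 24 h Cpt1a at 5000 µM, at 9805 on average, lies above every other group.

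**Figure D2:**
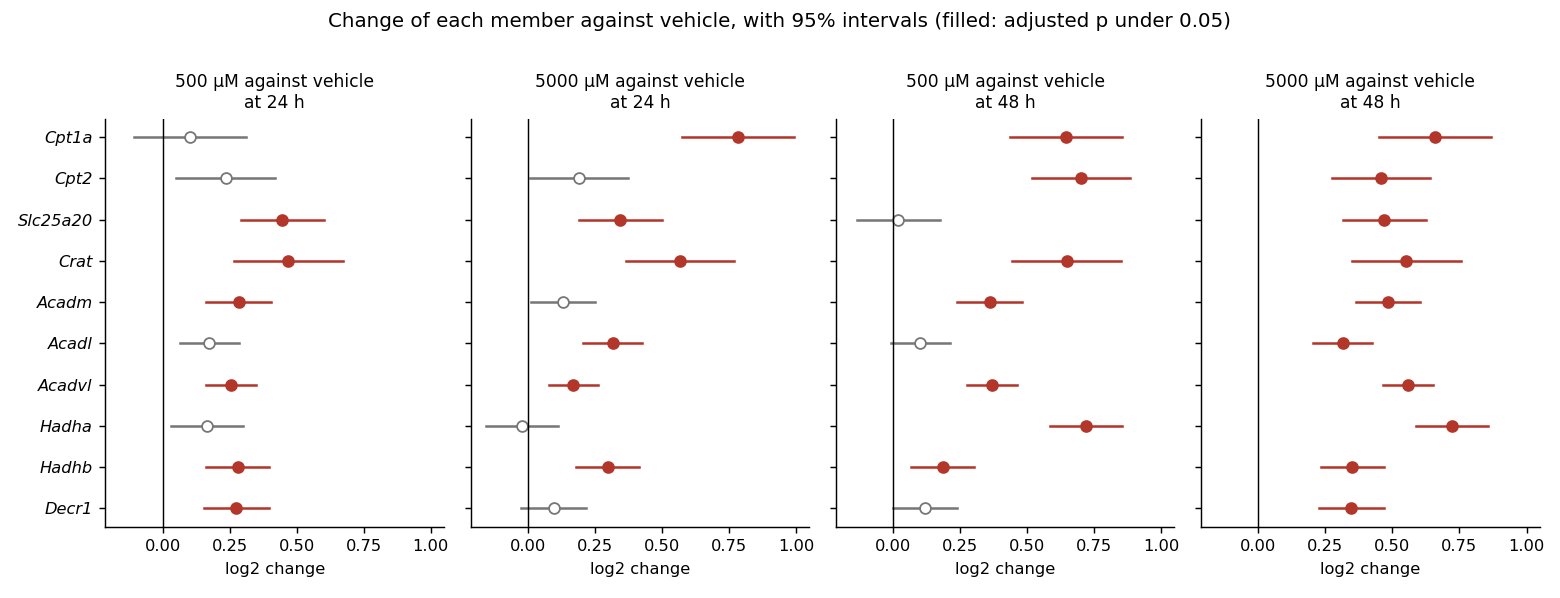
Log2 change of each gene against vehicle of the same time (horizontal axis) with its 95% interval from limma; filled red points have an adjusted p under 0.05 and open grey points do not. All 10 points are filled at 5000 µM and 48 h, and Cpt1a at 500 µM and 24 h, Hadha at 5000 µM and 24 h and Slc25a20 at 500 µM and 48 h lie close to 0.

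The wells had features that moved with the groups. The β-actin control, read as the log2 of its 3' signal over its 5' signal and a measure of RNA integrity and labelling, ranged over arrays from 1.49 to 1.99 in vehicle, 1.26 to 2.02 at 500 µM and 1.21 to 1.76 at 5000 µM at 24 h. At 48 h it ranged from 1.09 to 1.34 in vehicle, 1.74 to 2.00 at 500 µM and 1.15 to 1.29 at 5000 µM, so that the 500 µM arrays and the vehicle arrays did not overlap. A second fit, called the ratio-adjusted fit here, held this value as a covariate. In it 6, 7, 7 and 10 of the genes rose in the order above (background 1.35%, 15.8%, 2.49% and 16.4%). The 9 of 10 hepatocyte markers on the array, among them albumin and transthyretin, were all in the tested range, with a summed signal of 336128 to 448914 over the arrays. Among them 1 was called lower at 5000 µM at each time, and 1 higher at 500 µM and 48 h. The summed signal of 8 stellate cell and fibroblast markers, 3 of them in the tested range, was 5063 to 7905 in treated wells, against 8853 to 11427 in vehicle wells at 24 h, and 6406 to 9449 against 10005 to 13169 at 48 h. Among those 3, 2 were called lower at 5000 µM and 48 h and 1 in each other comparison with vehicle. Of 8 Kupffer cell and leukocyte markers on the array 2 were in the tested range, and the 8 summed to 7914 to 8976 at 500 µM and 48 h, against 9050 to 10294 in vehicle wells, with 1 called lower there. The 4 cholangiocyte markers, 1 of them tested, summed to 10810 to 12918 in treated wells, against 13094 to 14443 in vehicle wells at 48 h, and the tested one was lower at both doses. At 24 h they summed to 9417 to 10852 at 5000 µM, against 9156 to 9563 in vehicle wells, and the tested one was higher. The 5 sinusoidal endothelial markers, 1 of them tested, summed to 833 to 1620 over all arrays, and no array listed any probe set at 0. The part of these other cells in the results was not tested.

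The shuttle opens with Cpt1a, the malonyl-CoA-sensitive carnitine palmitoyltransferase of the outer membrane that sets the rate of fatty acid entry. At 24 h its signal was 4803, 4931, 5250, 6025 and 7965 in vehicle wells, 5521, 5810, 6308, 6414 and 6524 at 500 µM, and 9217, 9330, 9841, 10098 and 10536 at 5000 µM. All 5 arrays of the higher dose exceeded every other array, while the 500 µM arrays were inside the vehicle range, in which 1 array at 7965 stood above the rest. Cpt1a rose at 5000 µM and 24 h by 0.78 ± 0.10 (SE) on the log2 scale (limma, adjusted p = 2.70e-07), and its change at 500 µM was 0.10 (95% interval -0.11 to 0.31). Leaving out the vehicle array at 7965 gave 0.90 and 0.22. At 48 h the arrays read 3476, 4004, 4342, 4578 and 5374 in vehicle wells, 6190, 6337, 6810, 7078 and 7341 at 500 µM, and 6085, 6668, 6897, 7147 and 7295 at 5000 µM. Both doses lay above vehicle without overlap, and Cpt1a rose by 0.64 ± 0.10 (adjusted p = 1.57e-05) at 500 µM and by 0.66 ± 0.10 (adjusted p = 5.60e-06) at 5000 µM. Over the 6 groups the level was highest at 5000 µM and 24 h, whose arrays did not overlap the next group, and the ranges of all further neighbours in the order overlapped.

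A second, dimmer Cpt1a probe set, with signals of 987 to 2537, was compared as a check, in a limma fit over the whole set of probe sets that serves for all further probe sets below. It rose at 5000 µM by 0.65 at 24 h (adjusted p = 0.00119) and by 0.57 at 48 h (adjusted p = 0.00522). At 500 µM its changes were 0.01 at 24 h and 0.23 at 48 h (adjusted p = 0.337), so the rise at 500 µM and 48 h was called for the brighter probe set only. The difference between the probe sets was not tested.

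Slc25a20, the carnitine-acylcarnitine translocase of the inner membrane, rose at both doses at 24 h and at the higher dose at 48 h. Its signals at 48 h were 11322 to 12664 in vehicle wells (median 11572), 10651 to 13625 at 500 µM (median 11668) and 15638 to 17290 at 5000 µM (median 16466). Only the 5000 µM arrays stood apart, with a rise of 0.47 ± 0.08 (adjusted p = 1.03e-05), and the change at 500 µM was 0.02 (95% interval -0.14 to 0.17). The ratio-adjusted value at 500 µM and 48 h was 0.22 ± 0.09 (adjusted p = 0.203). At 24 h the vehicle arrays read 7767, 9265, 9861, 10278 and 10635, the 500 µM arrays 11854, 12215, 12313, 13903 and 14687, and the 5000 µM arrays 10762, 11243, 12408, 12698 and 13396. No treated array was as low as the highest vehicle array, and Slc25a20 rose by 0.45 ± 0.08 (adjusted p = 4.10e-04) at 500 µM and by 0.34 ± 0.08 (adjusted p = 4.91e-04) at 5000 µM.

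Cpt2, the inner-membrane palmitoyltransferase that regenerates acyl-CoA, passed the test at 48 h and not at 24 h. At 48 h its signal was 12058, 13027, 13247, 13584 and 15667 at 500 µM, against 7729, 7767, 8266, 8651 and 9128 in vehicle wells, and the rise was 0.70 ± 0.09 (adjusted p = 1.02e-06). It was 9939, 11146, 11523, 12252 and 12277 at 5000 µM, also above every vehicle array, and the rise was 0.46 ± 0.09 (adjusted p = 1.49e-04). In the ratio-adjusted fit these rises were 0.49 and 0.47. At 24 h the groups overlapped, with means of 10108 ± 1179 in vehicle wells, 11897 ± 1461 at 500 µM and 11538 ± 1484 at 5000 µM (SD, n = 5 each). The changes there were 0.23 (95% interval 0.05 to 0.42, adjusted p = 0.15) and 0.19 (0.01 to 0.37, adjusted p = 0.0963), and the value at 5000 µM passed in the ratio-adjusted fit (0.33, adjusted p = 0.0106).

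Crat, carnitine acetyltransferase, exchanges acetyl and other short acyl groups between CoA and carnitine, and it rose in all 4 comparisons. At 24 h its mean signal was 2500 ± 194.1 in vehicle wells, 3468 ± 406.7 at 500 µM and 3749 ± 745.2 at 5000 µM, and at 48 h it was 2611 ± 268.5, 4077 ± 266.7 and 3822 ± 324.1 in the same order of doses (SD, n = 5). The lowest treated array read 2903 at 24 h and 3458 at 48 h, each above the highest vehicle array of that time, at 2677 and 2992. The rises were 0.47 ± 0.10 (adjusted p = 0.00598) and 0.57 ± 0.10 (adjusted p = 2.89e-05) at 24 h and 0.65 ± 0.10 (adjusted p = 1.12e-05) and 0.55 ± 0.10 (adjusted p = 4.98e-05) at 48 h, at 500 and 5000 µM.

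Promoter sequence was available for 8 of the 10 genes in a table built from RefSeq annotation of the rat assembly GRCr8, and Acadl and Decr1 had no entry in it. PPAR receptors bind direct repeats with a 1-base spacer, here AGGTCANAGGTCA, and the 250 bases before each start were searched on both strands with up to 2 mismatches in the 12 fixed letters. Of the 8 promoters, 2 held a match, those of Crat and Acadvl, against 3.15% of all 33469 promoters. A match is a description of letters and no evidence of binding, and the search says nothing about sites outside these windows. The 250 bases before the start of Crat are shown because they hold one of the matches, printed in capitals, which lies 223 to 211 bases before the first transcribed base and has 2 mismatches (GRCr8, minus strand):
Crat chr3:34087100-34087349: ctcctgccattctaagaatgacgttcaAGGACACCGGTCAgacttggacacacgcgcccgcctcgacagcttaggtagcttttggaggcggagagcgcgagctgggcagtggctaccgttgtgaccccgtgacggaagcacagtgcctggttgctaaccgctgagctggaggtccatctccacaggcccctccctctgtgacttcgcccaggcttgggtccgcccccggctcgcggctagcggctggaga
The match before Acadvl has 1 mismatch, lies 17 to 5 bases before the start and is shown for comparison with that of Crat, all of it in capitals (GRCr8, minus strand):
Acadvl chr10:55236710-55236722: AGGTCAGTGGTCA

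The acyl-CoA dehydrogenases carry out the first step of each β-oxidation turn. Acadvl, the inner-membrane enzyme for very long chains, rose in all 4 comparisons and had the smallest standard error of the 10 genes. Its signal at 48 h was 11298, 11545, 11819, 11822 and 11923 at 500 µM, against 8776, 8985, 8988, 9047 and 9431 in vehicle wells. At 5000 µM and 48 h it was 12596, 12640, 13420, 13928 and 14040, so the 3 doses lay in order with no overlap between neighbours. The rises at 48 h were 0.37 ± 0.05 (adjusted p = 5.72e-07) and 0.56 ± 0.05 (adjusted p = 2.00e-11). At 24 h Acadvl rose by 0.26 ± 0.05 (adjusted p = 7.45e-04) at 500 µM, where its arrays lay above those of vehicle, and by 0.17 ± 0.05 (adjusted p = 0.0032) at 5000 µM, where they overlapped those of vehicle.

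Acadm, the medium-chain dehydrogenase, had signals at 48 h of 13582 to 15990 at 5000 µM (median 14622), against 9772 to 11648 in vehicle wells (median 9987). The 500 µM arrays, at 13025 to 14050, also lay above vehicle, and the rises were 0.36 ± 0.06 (adjusted p = 2.27e-05) at 500 µM and 0.48 ± 0.06 (adjusted p = 8.77e-08) at 5000 µM. At 24 h Acadm rose at 500 µM by 0.28 ± 0.06 (adjusted p = 0.00503), with 11116 to 11991 against 8013 to 10306 in vehicle wells. At 5000 µM and 24 h the range of 9628 to 10566 overlapped that of vehicle, and the change was 0.13 (95% interval 0.01 to 0.25, adjusted p = 0.0758).

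Acadl, the long-chain dehydrogenase, rose at 5000 µM and passed the test at 500 µM at neither time. Its signal was 36989 to 39311 at 5000 µM against 27791 to 33126 in vehicle wells at 24 h, and 43456 to 49372 against 34935 to 39860 at 48 h. Neither pair of ranges overlapped, and the rises were 0.32 ± 0.05 (adjusted p = 1.88e-05) and 0.32 ± 0.05 (adjusted p = 2.34e-05). At 500 µM its changes were 0.17 (95% interval 0.07 to 0.28, adjusted p = 0.0726) at 24 h and 0.10 (-0.01 to 0.21, adjusted p = 0.127) at 48 h.

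Hadha and Hadhb encode the α and β subunits of the mitochondrial trifunctional protein, which hydrates, dehydrogenates and cleaves long-chain intermediates. Both subunits rose at 5000 µM and 48 h, and their values differed in size and in time. At 48 h the Hadha signal was 9030, 9485, 9684, 9948 and 10246 in vehicle wells, 14494, 15251, 15660, 16336 and 18133 at 500 µM, and 14674, 15249, 16303, 16751 and 16905 at 5000 µM. Every treated array lay above every vehicle array, and Hadha rose by 0.72 ± 0.07 at each dose (adjusted p = 3.62e-09 at 500 µM and 2.73e-10 at 5000 µM). At 24 h its mean was 11281 ± 711.5 in vehicle wells, 12669 ± 1026 at 500 µM and 11131 ± 971.8 at 5000 µM (SD, n = 5). These groups overlapped, and the changes were 0.17 (95% interval 0.03 to 0.30, adjusted p = 0.164) and -0.02 (-0.16 to 0.11, adjusted p = 0.83).

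Hadhb rose at both times. At 24 h its signal was 30829 to 34875 at 500 µM and 30316 to 34513 at 5000 µM, against 23306 to 28357 in vehicle wells, with rises of 0.28 ± 0.06 (adjusted p = 0.00452) and 0.30 ± 0.06 (adjusted p = 1.00e-04). At 48 h it was 35157 to 41031 at 5000 µM, against 28873 to 31917 in vehicle wells, a rise of 0.35 ± 0.06 (adjusted p = 1.27e-05). At 500 µM and 48 h the range of 31068 to 38596 overlapped that of vehicle, and the rise was 0.18 ± 0.06 (adjusted p = 0.0106). The ratio-adjusted value there was 0.30 for Hadhb and 0.57 for Hadha. The difference between the subunits' changes was not tested.

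The other Hadha probe sets did not follow the bright one. One, with signals of 270 to 800, rose by 0.85 ± 0.15 at 5000 µM and 24 h (adjusted p = 1.04e-04), where the bright probe set was at -0.02. At 48 h its changes were 0.14 at 500 µM (adjusted p = 0.633) and 0.32 at 5000 µM (adjusted p = 0.221). The last one, with signals of 33 to 316, passed in none of the comparisons with vehicle. The Hadha values above therefore hold for its brightest probe set, and the mean of its 3 probe sets gave no call at 48 h.

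The 2 subunit genes lie head to head on chromosome 6 in GRCr8, with 300 bases between the starts used here, so 1 stretch lies upstream of both. An annotated gene extent reaches into this stretch from the Hadhb side, and so into the window searched for Hadhb. The 243 bases next to Hadha that lie outside annotated gene extents are shown, read toward Hadha on the plus strand:
Hadha and Hadhb chr6:31907558-31907800: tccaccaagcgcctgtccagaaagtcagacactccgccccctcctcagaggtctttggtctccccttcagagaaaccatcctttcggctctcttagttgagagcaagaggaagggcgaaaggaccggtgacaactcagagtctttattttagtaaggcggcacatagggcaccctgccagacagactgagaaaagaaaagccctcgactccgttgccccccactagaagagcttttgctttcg
No match to the repeat was found in the window of either gene.

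Decr1, the mitochondrial dienoyl-CoA reductase needed for polyunsaturated fatty acids, had signals at 24 h of 22708, 25190, 25512, 26765 and 27039 in vehicle wells, 29172, 29314, 30686, 31464 and 33204 at 500 µM, and 25807, 26270, 26310, 28364 and 29154 at 5000 µM. The 500 µM arrays stood above the vehicle arrays, and Decr1 rose there by 0.28 ± 0.06 (adjusted p = 0.0063). The 5000 µM arrays overlapped those of vehicle, with a change of 0.10 (95% interval -0.02 to 0.22, adjusted p = 0.205). At 48 h the higher dose stood above vehicle, with signals of 34337 to 41818 at 5000 µM against 28318 to 32264 in vehicle wells and a rise of 0.35 ± 0.06 (adjusted p = 2.22e-05). At 500 µM and 48 h the change was 0.12 (-0.00 to 0.24, adjusted p = 0.105).

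Scaling changed some of these counts. When arrays were centred on their medians, 2 of the 10 genes rose at 500 µM and 24 h, Slc25a20 and Crat (background 0.504% higher and 0.0938% lower, against 1.65% and 1.21% as deposited), and 4 rose at 5000 µM and 24 h (9.48% and 20.5%, against 18.6% and 19.6%), with Acadvl and Hadhb no longer called. At 48 h the same 7 and the same 10 genes rose (27.2% higher and 5.06% lower at 500 µM, against 24.0% and 18.6%, and 9.74% higher at 5000 µM, against 14.6%). The ratio-adjusted fit called the same 7 genes at 500 µM and 48 h. Ratio and dose cannot be told apart within that comparison by its own arrays, since the groups did not overlap in the ratio.

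**Figure D3:**
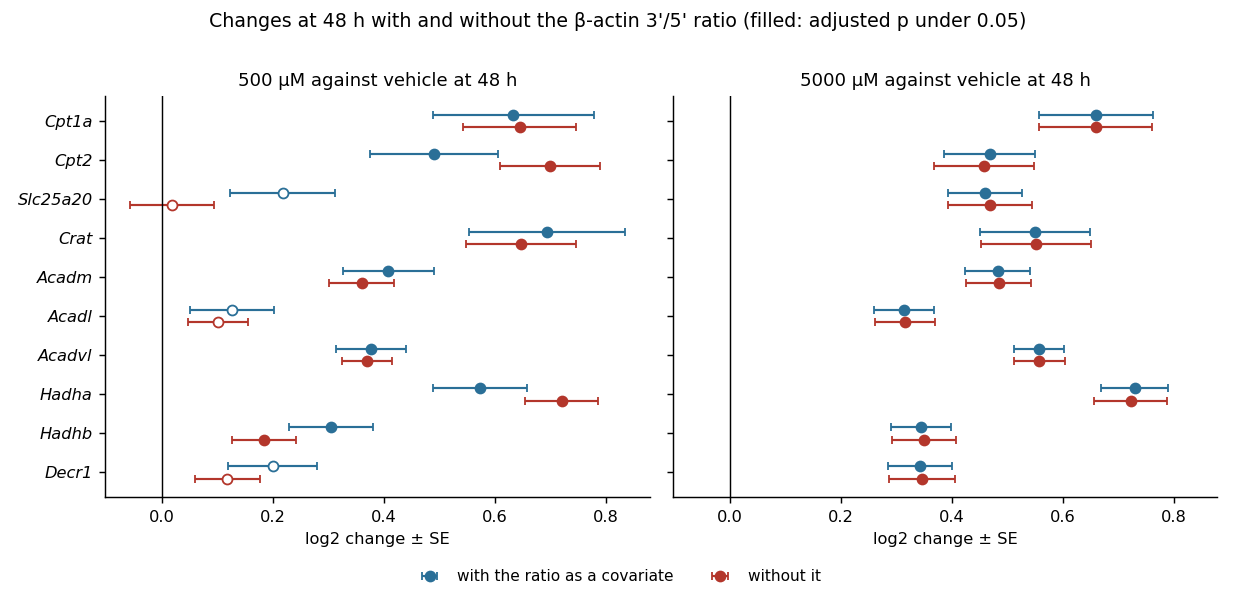
Log2 change ± SE of the 10 genes against vehicle at 48 h, with the log2 β-actin ratio in the fit (blue) and without it (red); filled points have an adjusted p under 0.05. At 500 µM, where the ratio differed from vehicle, Cpt2 and Hadha are lower and Slc25a20, Hadhb and Decr1 higher in the ratio-adjusted fit, and the same 7 points are filled; at 5000 µM both sets of points lie close together.

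The doses were compared directly. At 24 h, 5 of the 10 genes differed between 5000 and 500 µM (background 31.2%, of which 16.8% higher and 14.3% lower). Cpt1a was higher at 5000 µM by 0.68 ± 0.10 (adjusted p = 3.91e-06), with 9217 to 10536 at 5000 µM against 5521 to 6524 at 500 µM, and its second probe set was higher by 0.63 (adjusted p = 0.00206). The other calls were small. Acadl was higher at 5000 µM by 0.14 ± 0.05, and Decr1 (-0.18 ± 0.06), Hadha (-0.19 ± 0.07) and Acadm (-0.15 ± 0.06) were lower. Leaving out any one of the 10 arrays left 2 or 3 genes called, and Cpt1a was called in every such fit, Decr1 in 8 of 10, Hadha in 5, Acadl in 2 and Acadm in 0. The dimmer Hadha probe set went the other way, higher at 5000 µM by 0.46 (adjusted p = 0.0436). Ratio-adjusted, 1 gene was higher and 2 were lower (background 31.9%), and with centred arrays 1 was higher and 1 lower (21.3%).

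At 48 h, 6 of the 10 genes differed between the doses (background 47.6%, of which 19.4% higher and 28.2% lower). Slc25a20 was higher at 5000 µM by 0.45 ± 0.08 (adjusted p = 1.33e-05), with no overlap between 15638 to 17290 at 5000 µM and 10651 to 13625 at 500 µM. Decr1 (0.23 ± 0.06), Acadl (0.21 ± 0.05), Acadvl (0.19 ± 0.05) and Hadhb (0.17 ± 0.06) were higher too, and Cpt2 was lower (-0.24 ± 0.09). In the ratio-adjusted fit Acadvl was the 1 gene called (background 20.9%; 0.18 ± 0.06, adjusted p = 0.0424), and Slc25a20 was at 0.24 ± 0.10 (adjusted p = 0.0745). With arrays centred on their medians 1 gene was higher, Slc25a20, and 1 lower, Cpt2 (40.7%). That centring shifted the median of all tested genes to -0.13, against -0.04 as deposited, and the share of all tested genes called higher to 8.91%, against 19.4%.

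In vehicle wells, 8 of the 10 genes differed between 48 and 24 h (background 32.5%, of which 13.4% higher). Slc25a20 (0.32 ± 0.08), Acadl (0.28 ± 0.05), Decr1 (0.23 ± 0.06), Hadhb (0.20 ± 0.06) and Acadm (0.16 ± 0.06) were higher at 48 h, and Cpt1a (-0.40 ± 0.10), Cpt2 (-0.28 ± 0.09) and Hadha (-0.22 ± 0.07) were lower. The 3'/5' ratio of the vehicle arrays did not overlap between the times, at 1.09 to 1.34 at 48 h against 1.49 to 1.99 at 24 h. In the ratio-adjusted fit 1 gene was called, Acadl (background 5.16%; 0.26 ± 0.07, adjusted p = 0.0277), and with arrays centred on their medians 0 were higher and 3 lower (Cpt1a, Cpt2 and Hadha, background 23.8%, of which 3.33% higher). Leaving out the vehicle array with the highest Cpt1a signal at 24 h moved the Cpt1a value to -0.28 (adjusted p = 0.0189).

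The effect of each dose was also compared between the times, as the change against vehicle at 48 h minus that at 24 h. For 500 µM, 4 of the 10 genes passed (background 36.6%, of which 22.1% higher and 14.5% lower), with larger effects at 48 h for Hadha (0.55 ± 0.09), Cpt1a (0.54 ± 0.14) and Cpt2 (0.46 ± 0.13) and a smaller one for Slc25a20 (-0.43 ± 0.11). Ratio-adjusted, 0 of the 10 passed in limma (background 0.0352%), and 2 had an unadjusted p under 0.05, while with centred arrays 3 passed (24.7%), all but Slc25a20. For 5000 µM, 4 passed (background 16.4%, of which 7.74% higher and 8.66% lower), with larger effects at 48 h for Hadha (0.74 ± 0.09), Acadvl (0.39 ± 0.06), Acadm (0.35 ± 0.08) and Decr1 (0.25 ± 0.08). All 4 passed in the ratio-adjusted fit, at 0.65, 0.39, 0.38 and 0.30 (background 9.62%), and Hadha and Acadvl passed with centred arrays (7.21%). These differences share the vehicle wells of both times with the comparisons above, and vehicle itself changed with time.

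The rest of the pathway was read from lists of its genes, named by function. As background for every list, 1.65% of all tested genes rose and 1.21% fell at 500 µM and 24 h. At 5000 µM and 24 h 18.6% rose and 19.6% fell. At 48 h 24.0% rose and 18.6% fell at 500 µM, and 14.6% rose at 5000 µM. The share that fell at 5000 µM and 48 h is not given here, so counts of falls there stand without a background. Of 14 further mitochondrial β-oxidation and electron transfer genes 13 were in the tested range. Of these, 6 rose and 0 fell at 500 µM and 24 h, with 0 lower at an unadjusted p under 0.05, 4 rose and 2 fell at 5000 µM and 24 h, 9 rose and 2 fell at 500 µM and 48 h, and 8 rose and 1 fell at 5000 µM and 48 h. Ratio-adjusted, 2 rose and 0 fell at 500 µM and 48 h, where 1 was lower at an unadjusted p under 0.05. Eci1 and Eci2, isomerases that move double bonds of unsaturated chains, rose by 0.44 ± 0.06 and 0.34 ± 0.05 at 500 µM and 24 h and by 0.46 ± 0.06 and 0.56 ± 0.05 at 5000 µM and 24 h. Acaa2, the thiolase of the last step, was at 58030, 60420, 61632, 52197 and 69339 at 5000 µM and 48 h, against 36238 to 42854 in vehicle wells, a rise of 0.63 ± 0.07. A dimmer Acaa2 probe set was at 0.09 there (adjusted p = 0.814). Among the falls, Echs1, the short-chain enoyl-CoA hydratase, was at -0.24 ± 0.06 at 5000 µM and 24 h, and the electron transfer flavoprotein subunit Etfa at -0.17 ± 0.06 at 500 µM and 48 h.

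Slc22a5, of the acyl-CoA and carnitine supply genes, had the largest change by brightest probe set among tested genes of this and 3 other lists. Those were the further mitochondrial enzymes, malonyl-CoA control, and receptors and co-regulators. The peroxisomal list given below for reference held a larger one, 1.97 at 500 µM and 48 h. Of 14 tested genes 4 rose and 1 fell at 500 µM and 24 h, 4 rose and 3 fell at 5000 µM and 24 h, 7 rose and 1 fell at 500 µM and 48 h, and 8 rose and 2 fell at 5000 µM and 48 h. Ratio-adjusted, 2 rose and 0 fell at 500 µM and 24 h, where 1 was lower at an unadjusted p under 0.05. Acsl1, the main long-chain acyl-CoA synthetase of liver, had signals at 48 h of 10470 to 11924 in vehicle wells, 21482 to 24256 at 500 µM and 20627 to 23753 at 5000 µM. The treated arrays did not overlap vehicle, with rises of 1.00 ± 0.07 and 0.96 ± 0.07, and its second brightest probe set rose by 1.09 and 1.23. Slc22a5, the carnitine importer OCTN2 of the plasma membrane, was at 3774, 3915, 3926, 4157 and 4171 at 5000 µM and 48 h, against 1797, 1815, 1965, 2080 and 2119 in vehicle wells. It rose by 1.03 ± 0.06 there and by 0.66 ± 0.06 at 5000 µM and 24 h. Crot, the peroxisomal carnitine octanoyltransferase, rose by 0.75 ± 0.05 and 0.79 ± 0.05 at 5000 µM at 24 and 48 h. Bbox1, the last enzyme of carnitine synthesis, fell at 5000 µM and 24 h (-0.79 ± 0.08), where a second probe set was at -0.38 and not called. Acot9, a mitochondrial acyl-CoA thioesterase, fell at 5000 µM at 48 h (-0.73 ± 0.07) and 24 h (-0.25 ± 0.07).

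Genes of malonyl-CoA control, which act on Cpt1a through its inhibitor, went in both directions. The list also held Acacb, with a geometric mean signal of 45.9, and Prkab2, both below the tested range. Of 7 tested genes 1 rose and 0 fell at 500 µM and 24 h, where 2 were lower at an unadjusted p under 0.05. At 5000 µM and 24 h 2 rose and 3 fell, at 500 µM and 48 h 4 rose and 0 fell (1 and 0 in the ratio-adjusted fit), and at 5000 µM and 48 h 1 rose and 1 fell. Acaca, the acetyl-CoA carboxylase that makes malonyl-CoA for fatty acid synthesis, was at 6914 to 8861 at 5000 µM and 24 h, against 10485 to 15093 in vehicle wells, a fall with no overlap (-0.64 ± 0.09). At 48 h it rose at 500 µM (0.54 ± 0.09) and fell at 5000 µM (-0.35 ± 0.09), while a dimmer probe set was called in none of these comparisons. Mlycd, the decarboxylase that removes malonyl-CoA, rose by 0.30 ± 0.05 and 0.33 ± 0.05 at 5000 µM at 24 and 48 h and by 0.24 ± 0.05 at 500 µM and 24 h. Of the subunits of AMP-activated protein kinase, Prkag2 fell at 5000 µM and 24 h (-0.83 ± 0.12), where 3 dimmer probe sets were at -0.04, -0.21 and 0.47 and not called. Prkaa1 fell there too (-0.50 ± 0.06), but a dimmer probe set rose (0.43), so its direction depends on the probe set. Prkag1 rose at 5000 µM and 24 h (0.42). At 500 µM and 48 h the bright probe sets of Prkag2 (0.50) and Prkaa1 (0.30) rose, and their dimmer ones were not called.

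Among receptors and co-regulators of these genes 3 at most passed in a comparison with vehicle, which is no more than a count beside the background. Of 13, 10 were in the tested range. At 500 µM and 24 h 0 were called in limma (background 1.65% higher and 1.21% lower), with 1 lower at an unadjusted p under 0.05. At 5000 µM 1 fell at each time (background 19.6% lower at 24 h), Lpin1, a phosphatidate phosphatase and coactivator (-0.75 ± 0.12 at 24 h and -0.51 ± 0.12 at 48 h). At 500 µM and 48 h 3 rose (background 24.0%), Hnf4a (0.72 ± 0.10), Lpin1 (0.57 ± 0.12) and Ncor1 (0.16 ± 0.06), and 1 of the list rose in the ratio-adjusted fit (background 2.49%). Of the dimmer Hnf4a probe sets one rose (0.59) and one was at -0.10 there. A second Lpin1 probe set was called in the same direction in these 3 comparisons. Ppara, which encodes PPAR-alpha, was below the tested range, with signals of 35 to 504 over the arrays. In the limma fit over all probe sets it was not called against vehicle. Its change at 5000 µM and 24 h was 1.67 (adjusted p = 0.0544), with 218 to 388 against 37 to 209 in vehicle wells. It was -0.02 at 500 µM and 24 h, and 0.22 and 0.49 at 500 and 5000 µM at 48 h.

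For reference, 10 tested peroxisomal β-oxidation genes had 5 rises and 0 falls at 500 µM and 24 h, 2 and 1 at 5000 µM and 24 h, 6 and 1 at 500 µM and 48 h, and 7 and 1 at 5000 µM and 48 h, with medians of 0.24, 0.03, 0.28 and 0.32. Of 20 tested genes of the citrate cycle and respiratory chain, 0 were called at 500 µM and 24 h in limma, with 1 higher and 2 lower at an unadjusted p under 0.05. At 5000 µM and 24 h 0 rose and 8 fell, at 500 µM and 48 h 5 rose and 5 fell, and at 5000 µM and 48 h 2 rose and 1 fell, with medians of -0.15, -0.05 and -0.03. In the ratio-adjusted fit 4 peroxisomal genes rose and 0 fell, and 2 citrate cycle and respiratory chain genes rose and 0 fell, at 500 µM and 48 h. Of the ketone body synthesis genes 2 were tested, with 1 higher and 1 lower at 5000 µM at each time and 1 higher and 0 lower at 500 µM.

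**Figure D4:**
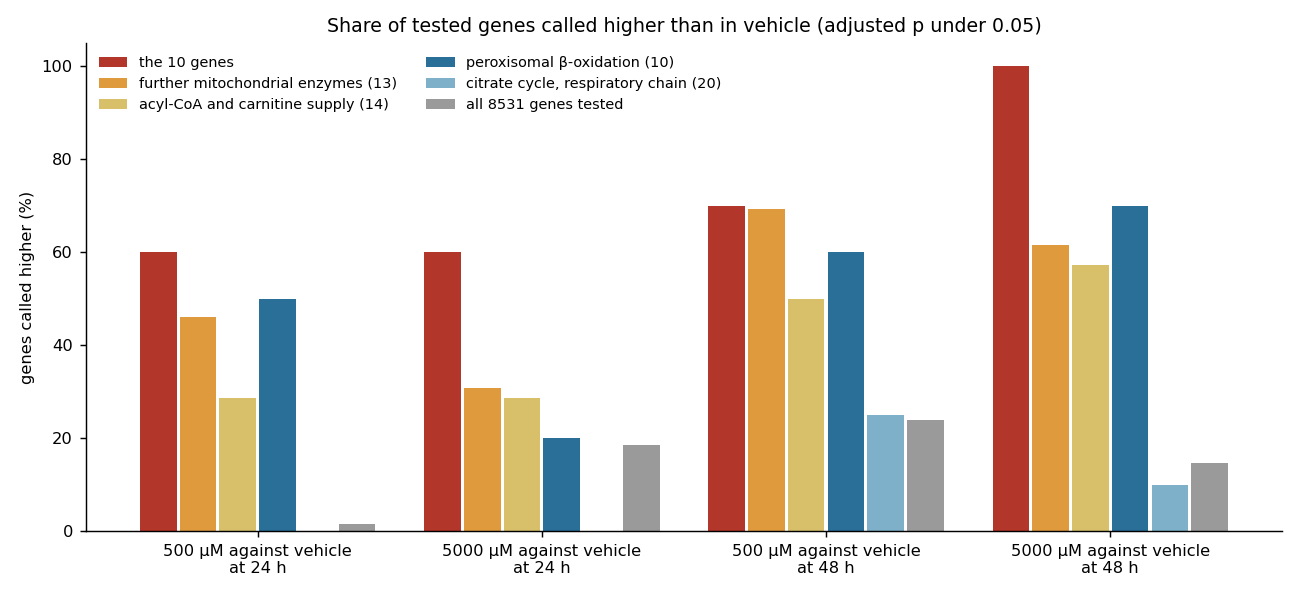
Share of tested genes called higher than in vehicle (vertical axis, percent, from 0) for the 10 genes, for 4 lists of related genes with the number tested in brackets, and for all genes tested, in each comparison of a dose with vehicle. The 10 genes reach 60%, 60%, 70% and 100%, against 1.65%, 18.6%, 24.0% and 14.6% of all tested genes.

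The genes whose changes lay nearest to those of Cpt1a were found by the root mean square difference over the 4 log2 changes against vehicle. They were Dtnb, a dystrobrevin (0.0960), Gdpd1 (0.124), Igfbp2, an insulin-like growth factor binding protein (0.126), Trim2 (0.139) and Rimkla (0.141). Nearest to the median of the 10 genes were Etfdh, the ubiquinone oxidoreductase that takes electrons from the acyl-CoA dehydrogenases (0.0422), Pex19, a peroxisome assembly protein (0.0571), Slc27a2, a very long-chain acyl-CoA synthetase (0.0710), the mitochondrial protease subunit Clpx (0.0798) and Bltp1 (0.0856). Etfdh changed by 0.23 and 0.22 at 500 and 5000 µM at 24 h and by 0.29 and 0.48 at 48 h. The 4 changes share vehicle wells in pairs, so such closeness is a description over 4 values.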

How the data were processed

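The authors deposited 1 table of MAS5 signal intensity per probe set on a linear scale, for 31099 probe sets and 30 arrays. MAS5 is named, without a version, in the submitters' processing notes, and its scaling target is not stated. Trimmed by 2%, array means of 1500.55 to 1500.66 show that each deposited intensity column had been scaled alike. The values were taken as log2 with no further scaling. Groups came from the sample titles. The 57 control probe sets were left out, 20826 probe sets had 1 gene symbol, 436 had several and 9780 are unnamed here, and symbols were updated through Entrez identifiers. The brightest 60% of the genes were tested, down to a geometric mean signal of 469. All 30 arrays entered 1 fit with limma 3.58.1 in R 4.3.3, with 6 group means and an intensity trend (24 residual and 7.58 prior degrees of freedom). P-values were adjusted by Benjamini and Hochberg over the 8531 genes, and 9 comparisons were made. The titles carry running numbers in which each of 5 consecutive blocks of 6 holds 1 well of every group, and whether a block is a plate or a day is not stated, so it was left out of the main fit and tried as an alternative. Named are the 10 genes, the 3 largest called rises and falls at most of each list of related genes in each comparison with vehicle, and the 5 genes nearest to Cpt1a and to the median of the 10. Ppara, Acacb, Prkab2 and the albumin and transthyretin markers were named outside this rule. On simulated data for 5000 µM against vehicle at 24 h (8531 genes), 85 of 100 genes changed by 0.5 on the log2 scale and 98 of 100 changed by 1 were recovered, with 6 false calls. The number of arrays limits the precision. Alternatives covered scaling, filters, probe set choice, the trend, an added 50, the 3'/5' ratio and each array left out. The genes, lists and tests were chosen with earlier results of these data known.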

Additional observations from a re-analysis of the deposited data

Results flagged for a closer look

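For 8 values the effect of a dose differed between 48 and 24 h by the test of the difference itself, given as the change against vehicle at 48 h minus that at 24 h. At 500 µM these were Hadha (0.55), Cpt1a (0.54), Cpt2 (0.46) and Slc25a20 (-0.43). In the fit adjusted for the β-actin 3'/5' ratio they were 0.37 (adjusted p = 0.128), 0.53 (adjusted p = 0.19), 0.20 (adjusted p = 0.563) and -0.18 (adjusted p = 0.522) in limma. The 3'/5' ratio at 500 µM and 48 h, 1.86 ± 0.12, lay above that of vehicle at 48 h, 1.24 ± 0.11 (SD, n = 5 arrays each), and its part in these differences cannot be told apart from that of dose. The second Cpt1a probe set had a difference of 0.21 and was not called.

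At 5000 µM, where 16.4% of all tested genes passed, the 4 values were Hadha (0.74), Acadvl (0.39), Acadm (0.35) and Decr1 (0.25). In the adjusted fit they were 0.65, 0.39, 0.38 and 0.30, all past the threshold. With arrays centred on their medians Hadha and Acadvl were called and Acadm and Decr1 were not. Decr1 lost its call in 9 of 20 fits that left out 1 array. The dimmer Hadha probe set had a difference of -0.53 (adjusted p = 0.172), opposite in sign to the bright one. Of 60 sets of 5 arrays, 1 for each gene and group, none had an array far enough from the other 4 to pass Dixon's test at its critical value of 0.71.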

How the results depend on the processing

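With the 5 blocks of running numbers in the titles as a replicate block, an alternative chosen after seeing the data, the counts called were 7, 6, 7 and 10 against vehicle (500 and 5000 µM at 24 h, then at 48 h), 5 and 6 between the doses at 24 and 48 h, 8 for the time comparison in vehicle, and 4 for the time difference at either dose. Every call was kept, and Acadl at 500 µM and 24 h was gained (0.17, adjusted p = 0.0351 in limma). Deviations from the group means correlated at a median of 0.062 within blocks (-0.32 to 0.433 over 75 pairs of arrays, across genes). Between arrays of different blocks and groups the median was -0.0184 (300 pairs). Within blocks 31 pairs were over 0.1, and 19 of 30 arrays were closest to their own block. Wells of the same block were thus somewhat alike, which the main fit leaves out. The counts of the 10 genes called stayed within 1.5 times of those reported under every alternative except the following. With arrays centred on their medians 2 were called at 500 µM and 24 h, 2 and 2 between the doses at 24 and 48 h, 3 in vehicle over time and 2 in the 5000 µM difference between times. Adjusting for the β-actin 3'/5' ratio gave 3 and 1 between the doses at 24 and 48 h, 1 in vehicle over time and 0 in the 500 µM difference. Between the doses at 24 h, 3 were called under quantile normalization, with the mean of all probe sets, with no filter, and without the intensity trend. Leaving out 1 array gave 2 to 3 there, 6 to 7 at 24 h against vehicle at either dose, 7 at 500 µM and 10 at 5000 µM at 48 h, 4 to 6 between the doses at 48 h, 6 to 8 in vehicle over time, 4 in the 500 µM difference and 3 to 4 in the 5000 µM difference. No call against vehicle was lost in these fits, and Acadl at 500 µM and 24 h and Cpt2 and Acadm at 5000 µM and 24 h were each gained in 1. Shares of all tested genes are given further up for the main, ratio-adjusted and centred fits only. The counts under the other settings stand without such a background and show only how far the calls of the 10 genes moved. The values of single genes against vehicle and the called ones of the other comparisons, 67 in all, were recomputed under each other setting. Of these, 599 kept their direction and side of the threshold, 57 lost and 8 gained a call, and 6, all for Hadha, changed sign. Uncalled values of the other comparisons were not counted. With the mean of its 3 probe sets, 2 of them dim, it was at -0.0016 at 500 µM and 0.38 at 5000 µM against vehicle at 24 h, 0.38 between the doses at 24 h, 0.0043 in vehicle over time and -0.14 in the 5000 µM difference, none called, and ratio-adjusted 0.0751 at 5000 µM and 24 h. Without 1 array Hadha at 5000 µM and 24 h ranged from -0.0637 to 0.0254 and Slc25a20 at 500 µM and 48 h from -0.0273 to 0.0615, none called. The cause of these changes was not tested.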
